A study of Mus musculus with 6 samples.

Results

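Leptin and 8 other adipokines, the hormones and signalling proteins that fat cells secrete, were followed by their transcripts in the inguinal adipose tissue (iAT) of mice at postnatal day 6. The 9 genes, *Lep*, *Adipoq*, *Retn*, *Rbp4*, *Nrg4*, *Apln*, *Nampt*, *Cfd* and *Lcn2*, were chosen from the secreted products of adipocytes with the values of this comparison already known, and they make up 9 of the 19831 genes listed. RNA was sequenced from 3 samples of wild-type mice and 3 of mice without *Npffr1* (Npffr1-KO), the gene of a neuropeptide FF receptor. No other treatment or allele is given in the labels, and the sources used here do not say how *Npffr1* was inactivated or whether a sample was 1 mouse or a pool. The methods name male C57BL/6 mice for this age, but not expressly for these samples. Each gene has 1 value per genotype, a read count normalized for library size. The differences that follow therefore carry no test, and no replicate spread except for *Lcn2* and other low genes whose reads per library could be worked out.

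White adipocytes report the size of the fat store to the brain through leptin, whose receptor acts through JAK and STAT proteins and is restrained by SOCS3. Adiponectin (*Adipoq*), resistin (*Retn*) and adipsin (*Cfd*) are made almost wholly by fat cells in the mouse, whereas *Rbp4*, *Nampt*, *Apln* and *Lcn2* are also made by other organs or by endothelial, epithelial and immune cells. *Nrg4* encodes a growth factor that is prominent in brown fat. The iAT of newborn mice contains thermogenic adipocytes beside white ones.

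All 9 transcripts were present in the iAT of both genotypes, and *Lep* differed from the other members in how it compared between them. *Lep* was 2.07-fold higher in Npffr1-KO, whereas the other 8 genes lay between 1.13-fold lower and 1.27-fold higher. On the log2 scale the *Lep* ratio was 1.05 and those of the other 8 ran from -0.18 to 0.34. A difference of at least 1.5-fold was reached by 1 of the 9 genes upward and by 0 downward. Of the 15309 genes whose 2 values averaged 10 normalized counts or more, 2.78% were higher and 3.12% were lower by that fold. All 9 adipokines passed this minimum. As the genes were picked with these values known, the counts only describe them. The median log2 ratio was 0.11 for the 9 genes and 0.01 for all 15309.

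The iAT samples had the transcripts of fat cells. All 16 adipocyte markers examined were past the minimum, and the highest were *Fabp4*, the fatty acid carrier of adipocytes, with 156285 normalized counts in wild-type, and *Lpl*, lipoprotein lipase, with 136814. Over all genes the values added up to 23137300 normalized counts in wild-type against 23640000 in Npffr1-KO. The targeted gene *Npffr1* had 6 reads in the 3 wild-type libraries together and 0 in those of Npffr1-KO, which is too few to check the labels. The values of the 2 genotypes are drawn together, and not only where reads are few. Genes with a single read in the experiment differed by at most 0.07 on the log2 scale, so the ratios of low genes understate a difference. For *Cdh1*, with a mean of 77.0, reads worked out per library gave a log2 ratio of -0.80, against -0.72 as deposited. How far abundant genes such as *Lep* are affected could not be seen. In whole tissue, fewer cells of a type and less RNA per cell cannot be told apart.

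*Lep*, the gene of leptin (Entrez 16846, chromosome 6), had 4210 normalized counts in wild-type against 8703 in Npffr1-KO. With each value taken as the mean of 3 libraries, counting error alone gave a 95% exact binomial interval of 2.02 to 2.11 for the fold. This interval does not include the spread between animals. Per kilobase (kb) of the gene length listed by the authors, the level of *Lep* was 1293 normalized counts in wild-type against 2672 in Npffr1-KO. This exceeded the level of 92.8% of the listed genes in wild-type and of 96.5% in Npffr1-KO. Of the 15309 genes past the minimum, 60 had a ratio at least as high as that of *Lep*, itself included. Such ratios were scarce among abundant transcripts. Of 5283 genes that averaged 1000 normalized counts or more, 6 reached the ratio of *Lep*, namely *Cox8b*, *Nnt*, *Chchd10*, *Fam20c*, *Cnbd2* and *Lep*. Of 1036 genes that averaged 4000 or more, 2 did, *Cnbd2* and *Lep*. The 5 genes other than *Lep* were named after their values were seen.

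**Figure D1:**
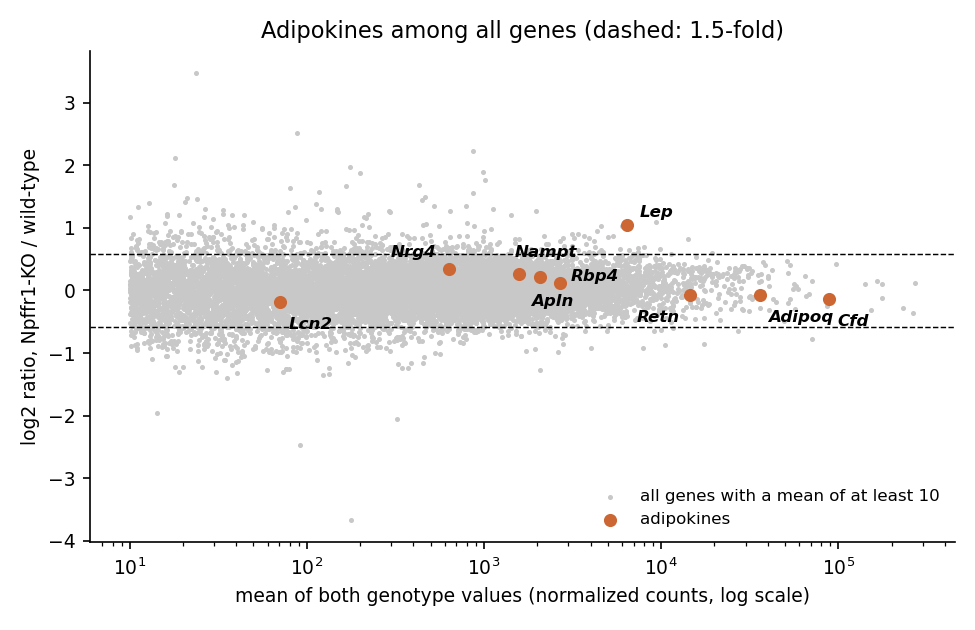
Each grey point is 1 of the 15309 genes, with the mean of both genotype values on a log scale (x axis, normalized counts) against the log2 ratio of Npffr1-KO to wild-type (y axis), and the 9 adipokines are in orange. *Lep* lies at 1.05, above the dashed line for 1.5-fold, and the other 8 lie between the dashed lines.

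The 250 bases before the transcription start of *Lep* are shown because *Lep* is the gene that differed, and those of *Adipoq* and *Retn* because both are hormones of the same adipocytes that hardly differed. They are from RefSeq on build GRCm38.p6, all on the plus strand, and cover chr6:29059971-29060220 for *Lep*, chr16:23146286-23146535 for *Adipoq* and chr8:3655520-3655769 for *Retn*. Each is read 5′ to 3′ and ends at the base before the start. Capitals mark matches, on either strand, to TTGCGCAA, the palindromic site of C/EBP factors, to TATAA, the core of a TATA box, to CCAAT, and to GGGCGG, the GC box of Sp1.
Lep: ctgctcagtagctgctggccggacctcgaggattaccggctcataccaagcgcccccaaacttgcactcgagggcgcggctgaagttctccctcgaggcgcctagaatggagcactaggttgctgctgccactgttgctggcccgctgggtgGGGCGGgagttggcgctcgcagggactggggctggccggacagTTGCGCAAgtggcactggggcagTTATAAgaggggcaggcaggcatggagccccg
Adipoq: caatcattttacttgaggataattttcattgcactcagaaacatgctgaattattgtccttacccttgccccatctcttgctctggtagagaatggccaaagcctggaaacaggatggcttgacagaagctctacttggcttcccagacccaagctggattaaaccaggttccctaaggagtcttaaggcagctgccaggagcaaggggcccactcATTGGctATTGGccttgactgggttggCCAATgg
Retn: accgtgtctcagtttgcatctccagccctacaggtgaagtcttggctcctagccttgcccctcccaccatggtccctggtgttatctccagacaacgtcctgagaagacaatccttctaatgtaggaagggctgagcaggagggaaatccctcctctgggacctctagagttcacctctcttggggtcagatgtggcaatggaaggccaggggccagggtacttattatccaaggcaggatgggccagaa

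The C/EBP palindrome TTGCGCAA occurred in the *Lep* window alone among the 9 genes, from 55 to 48 bases before the start, and in 0.164% of the 32851 windows of this length in the table. *Lep* also held TATAA on both strands in overlapping positions, from 32 to 27 bases before the start. TATAA was in 22.8% of all windows and, of the other adipokines, in a window of *Rbp4*. The *Adipoq* window held CCAAT 3 times, a motif in 33.8% of all windows. GGGCGG, in 32.7% of all windows, was in those of *Lep*, *Rbp4*, *Apln*, *Nampt* and *Lcn2*. CACGTG, the E-box, was searched as well and was in 6.02% of all windows and in none of the 9 genes. In the *Retn*, *Cfd* and *Nrg4* windows none of the 5 motifs was found. Only these exact strings were searched, so variants of a site were not counted. A match is a description of the letters, and binding was not measured here.

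Genes beside *Lep* on chromosome 6 did not share its ratio. Of the 3 listed genes on either side, 5 passed the minimum, and their log2 ratios lay between -0.16 for *Prrt4* and 0.43 for *Impdh1*. The nearest neighbours were *Lrrc4*, with 58.9 normalized counts in wild-type against 53.4 in Npffr1-KO, and *Rbm28*, with 1248 and 1432. The 5 genes whose pair of values was closest to that of *Lep*, by distance on the log2 scale over the 2 genotypes, were *G0s2*, *Hadhb*, *Cd52*, *Fos* and *Pmepa1*. The closest, *G0s2*, encodes an inhibitor of the lipase ATGL in adipocytes. It had 3927 normalized counts in wild-type against 8039 in Npffr1-KO, a 2.05-fold difference at a distance of 0.152. The other four differed by 1.58-fold or less. Likeness over only 2 values is a weak description.

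*Cfd*, *Adipoq* and *Retn* were the most abundant adipokines in both genotypes, and their values were slightly lower in Npffr1-KO. *Cfd*, which encodes adipsin, the protease that starts the alternative complement pathway, had 92905 normalized counts in wild-type against 84825 in Npffr1-KO. Its log2 ratio was -0.13. Per kb, only 3 listed genes exceeded it in wild-type and 5 in Npffr1-KO. *Adipoq*, the gene of the insulin-sensitizing hormone adiponectin, had 37027 normalized counts in wild-type against 35360 in Npffr1-KO, with a log2 ratio of -0.07. *Retn*, the gene of resistin, which impairs the action of insulin in the mouse, had 14986 and 14324, also with a log2 ratio of -0.07. These 3 transcripts therefore differed by 1.10-fold or less, and *Cfd* alone made up 62.7% of the summed level of the 9 genes per kb in wild-type and 60.7% in Npffr1-KO.

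*Rbp4*, which encodes the carrier of retinol in plasma, had 2600 normalized counts in wild-type against 2811 in Npffr1-KO. Its log2 ratio of 0.11 turned to -0.09 when it was centred on genes of like length. *Apln*, the gene of apelin, the ligand of a receptor of blood vessels, had 1917 normalized counts in wild-type against 2221 in Npffr1-KO, with a log2 ratio of 0.21. *Nampt*, also known as visfatin, encodes an enzyme of NAD synthesis that is secreted too. It had 1428 normalized counts in wild-type against 1718 in Npffr1-KO, with a log2 ratio of 0.27. *Nrg4*, the gene of neuregulin 4, had 563 and 713 normalized counts, with a log2 ratio of 0.34. This was the highest ratio after that of *Lep*, and its counting interval ran from 0.25 to 0.43.

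Per kb, the order of the 9 levels was the same in both genotypes, from *Cfd* through *Adipoq*, *Retn*, *Rbp4*, *Lep*, *Apln*, *Nampt* and *Nrg4* to *Lcn2*. The levels spanned 1136-fold in wild-type and 1176-fold in Npffr1-KO. Without a spread for each level, the order of close neighbours such as *Nampt* and *Nrg4*, with 314 and 289 normalized counts per kb in wild-type, cannot be tested. *Lep* kept its place in this order, but its distance from the others differed between genotypes. *Rbp4* was 2.16-fold above *Lep* per kb in wild-type and 1.13-fold above it in Npffr1-KO. *Adipoq* exceeded *Lep* per kb by 23.2-fold in wild-type and by 10.7-fold in Npffr1-KO. *Lep* in turn exceeded *Apln* by 2.12-fold in wild-type and by 3.79-fold in Npffr1-KO.

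**Figure D2:**
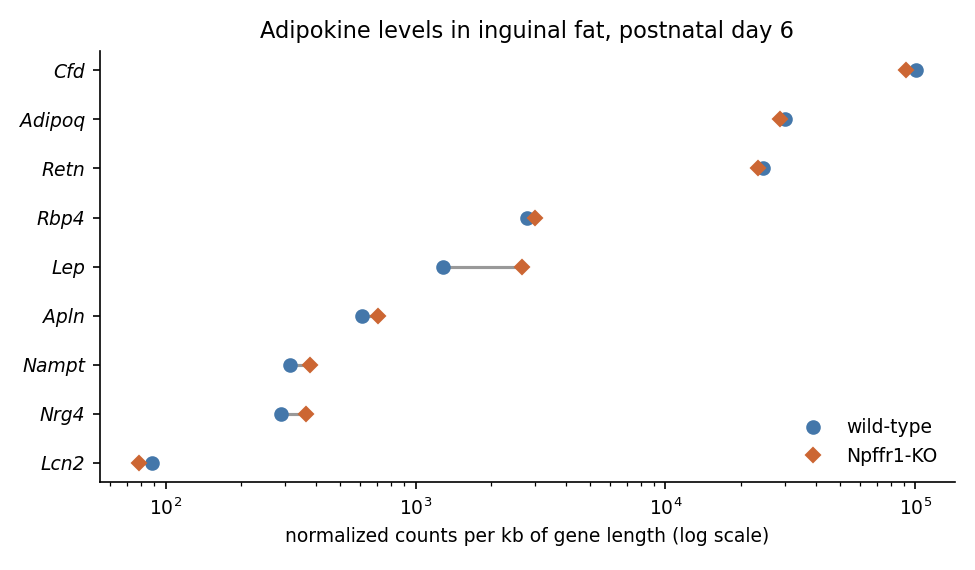
The level of each adipokine in normalized counts per kb of gene length (x axis, log scale) is given for wild-type (circles) and Npffr1-KO (diamonds), 1 value per genotype joined by a line. The longest line is that of *Lep*, from 1293 to 2672, and the order of the genes is the same in both genotypes.

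Short genes tended to be higher in Npffr1-KO. Among genes past the minimum, the shortest 5%, up to 837 bases, had a median log2 ratio of 0.27, and the longest 5%, from 7427 bases, one of -0.14. This bears on the adipokines because their listed lengths run from 613 bases for *Retn* to 4547 for *Nampt*. Centred on genes of like length, the log2 ratio was 1.07 for *Lep*, -0.24 for *Adipoq*, -0.33 for *Retn* and -0.34 for *Cfd*. The ratio of *Lep* was thus as large after centring, while the 3 abundant short adipokines lay further below 0. *Lcn2* lay at -0.39, *Nrg4* at 0.26, *Apln* at 0.24 and *Nampt* at 0.33 on this scale. The count past 1.5-fold stayed at 1 upward and 0 downward, while 2.24% of the 15309 genes were higher and 3.51% lower on this scale.

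**Figure D3:**
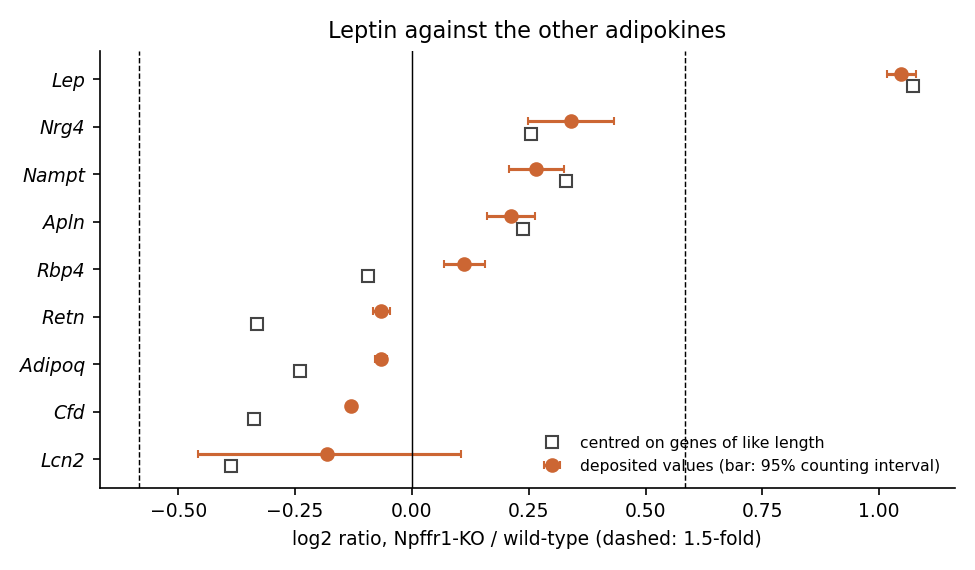
Filled circles give the log2 ratio of Npffr1-KO to wild-type (x axis) for each adipokine with its 95% counting interval, and open squares the ratio centred on genes of like length. *Lep* stays at 1.05 and 1.07, while *Adipoq*, *Retn*, *Cfd*, *Rbp4* and *Lcn2* move to the left and *Rbp4* crosses 0.

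*Lcn2* encodes lipocalin 2, a protein that binds bacterial iron carriers and is made by neutrophils and epithelia as well as by fat cells. It was the lowest member, with 75.4 normalized counts in wild-type against 66.5 in Npffr1-KO. At this depth its whole reads in each library could be worked out. Exactly 1 combination of reads matched the sum of the deposited values and lay in their direction. Each genotype value was not matched by itself, so the match may not give the true reads. The libraries are called a, b and c within a genotype because they could not be tied to sample numbers. Normalized reads of *Lcn2* were 62.8, 73.4 and 91.3 in the wild-type libraries a, b and c. They were 56.9, 57.5 and 84.0 in the Npffr1-KO libraries. The highest Npffr1-KO library thus lay above 2 of the 3 wild-type libraries, and the groups overlapped. The means were 75.8 ± 14.4 (SD, n = 3) in wild-type and 66.1 ± 15.5 (SD, n = 3) in Npffr1-KO, so the difference was smaller than the spread between libraries. No test was run, since the gene was chosen from this contrast.

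Genes of neutrophils were examined beside *Lcn2*. Of the 12 markers, none was more than 1.5-fold higher in Npffr1-KO and 1 was lower, *Ltf*, which encodes lactoferrin of neutrophil granules. Centred on gene length, 2 were lower by that fold, *Ltf* at -0.71 and *Ngp* at -0.68 on the log2 scale. The wild-type libraries had 43.5, 52.9 and 86.3 normalized reads of *Ltf*, and those of Npffr1-KO had 47.2, 32.3 and 24.0. The highest Npffr1-KO library of *Ltf* lay above the lowest wild-type one. The normalized reads of 7 neutrophil markers that could be worked out summed to 162, 163 and 318 in the wild-type libraries a, b and c and to 252, 154 and 146 in the Npffr1-KO libraries. Wild-type library c was the highest of its genotype for both *Lcn2* and this sum. Among the Npffr1-KO libraries, *Lcn2* was highest in c, where the neutrophil sum was lowest. The part of neutrophils in the *Lcn2* level was not tested. The most abundant markers of the list, *Cxcr2* and *Mmp9*, had log2 ratios of 0.06 and 0.20.

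**Figure D4:**
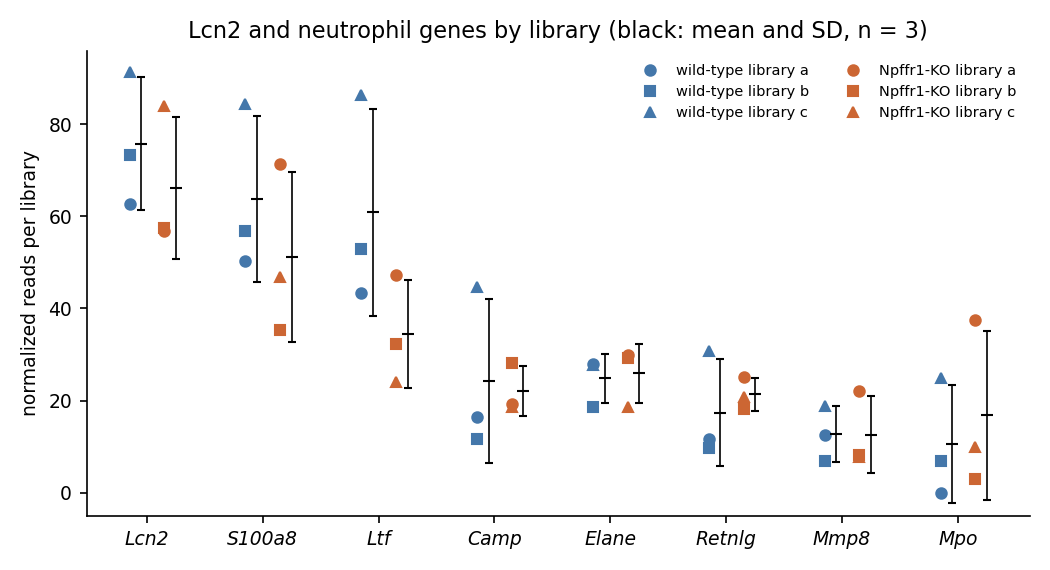
Normalized reads (y axis) of *Lcn2* and of 7 neutrophil genes are shown for the 3 wild-type (blue) and 3 Npffr1-KO (orange) libraries, with shapes for libraries a, b and c and the mean and SD in black. *Lcn2* overlaps between genotypes, and its highest Npffr1-KO library, c with 84.0, is the lowest of its genotype for *Ltf* with 24.0.

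Of 11 receptors of the adipokines listed, 9 passed the minimum, and 0 of these differed by 1.5-fold in either direction. Of the 9, 6 had a log2 ratio below 0 and 3 above. Their median log2 ratio was -0.27, and it was -0.22 centred on gene length. *Lepr*, the leptin receptor, had 276 normalized counts in wild-type against 226 in Npffr1-KO, with a log2 ratio of -0.29. *Adipor2*, a receptor of adiponectin and the most abundant of the list, had 12709 and 10268 normalized counts, with a log2 ratio of -0.31. *Aplnr*, the apelin receptor of endothelial cells, had 9140 and 7570, with a log2 ratio of -0.27. *Erbb3*, a receptor of neuregulins, had the lowest ratio, -0.57, with 123 and 83.0 normalized counts. *Lepr* and *Erbb3* were named after their values were seen. *Erbb4*, which binds neuregulin 4, stayed under the minimum, with 5.17 and 7.51 normalized counts. Whole reads of *Erbb4* were 4, 5 and 2 in the wild-type libraries a, b and c but 17, 0 and 10 in the Npffr1-KO libraries, so the groups overlapped. Endothelial markers also had a median log2 ratio of -0.39, with 1 of 8 past 1.5-fold, *Vwf*, at -0.85. Their most abundant members *Cdh5* and *Pecam1* had -0.37 and -0.28, and their part in the *Aplnr* value was not tested.

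Of the 12 genes of leptin signal transduction, 1 was past 1.5-fold, *Socs3*, the feedback inhibitor of the leptin receptor and of other cytokine receptors. By that fold, 2.78% of the 15309 genes past the minimum were higher and 3.12% were lower. These shares also stand beside the counts of the lists that follow, where those are not centred on gene length. *Socs3* had 816 normalized counts in wild-type against 1360 in Npffr1-KO, a 1.67-fold difference. The other 11 lay between -0.14 and 0.23 on the log2 scale. *Stat3*, the main transcription factor downstream of the leptin receptor, had 3423 and 3113 normalized counts, with a log2 ratio of -0.14. *Ptpn11*, which encodes the phosphatase SHP2, had a log2 ratio of -0.13.

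Of 10 transcription factors reported to act on the *Lep* gene, 1 was past 1.5-fold, *Ppargc1a*, a coactivator better known from thermogenic fat. It had 136 normalized counts in wild-type against 241 in Npffr1-KO, a 1.78-fold difference. *Cebpa*, which encodes the C/EBP factor of mature adipocytes, had 12682 and 12629 normalized counts, with a log2 ratio of -0.01. *Cebpb* stood at 0.52 and *Cebpd* at 0.12 on the log2 scale, and both were named after their values were seen. *Srebf1*, a regulator of lipid synthesis, had 6010 and 6796 normalized counts, with a log2 ratio of 0.18.

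Of 16 paralogs of the adipokines past the minimum, 1 was higher and 1 was lower by at least 1.5-fold, with a median log2 ratio of -0.03. *Retnla*, the resistin-like gene of RELMα, had 419 normalized counts in wild-type against 1561 in Npffr1-KO. This 3.72-fold difference stood beside a *Retn* value that was nearly the same in both genotypes. *Apod*, the gene of the lipocalin apolipoprotein D, was 1.66-fold lower in Npffr1-KO, with 626 and 377 normalized counts. The other 14 paralogs stayed within 1.5-fold, among them the adiponectin-like genes *C1qtnf1* and *C1qtnf6*, with log2 ratios of -0.39 and -0.03. Reads shared by close relatives such as *Retnla* and *Retnlg* could have been divided between them.

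Among 29 further adipokines past the minimum, 3 were lower by at least 1.5-fold. *Agt*, the gene of angiotensinogen, was 1.66-fold lower, with 2033 and 1221 normalized counts. *Sfrp5*, a secreted antagonist of Wnt ligands, was 1.70-fold lower, with 299 and 176. *Slit2*, a secreted guidance factor, was 1.63-fold lower, with 167 and 102, and its log2 ratio was -0.70 as deposited and -0.56 centred on gene length. The most abundant of the list were *Sparc*, a matrix protein, and *Apoe*, apolipoprotein E, with log2 ratios of -0.13 and -0.06.

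Genes that act with adiponectin, NAMPT and adipsin were examined as well. Of 7 genes of adiponectin assembly and signalling, 0 were past 1.5-fold. The most abundant, *Erp44*, which retains adiponectin in the secretory pathway, had a log2 ratio of 0.10, and *Appl2*, an adaptor protein, had -0.39. Of 11 genes of NAD metabolism, 1 was past 1.5-fold, *Naprt*, which makes NAD from nicotinic acid, with 230 normalized counts in wild-type against 373 in Npffr1-KO. *Nnmt* and *Parp1*, which consume nicotinamide and NAD, had log2 ratios of 0.35 and 0.17. Of 6 genes of the alternative complement pathway, 0 were past 1.5-fold, and *C3* and *Cfb*, whose products adipsin acts with, had log2 ratios of 0.07 and 0.21.

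Markers of fat cells and of other cells were compared with *Lep*. Of the 16 adipocyte markers, 0 were higher and 1 was lower by 1.5-fold, *Acvr1c*, the gene of the activin receptor ALK7, with 2214 normalized counts in wild-type against 1399 in Npffr1-KO. Its log2 ratio was -0.66, and -0.52 centred on gene length. Their log2 ratios ran from -0.66 to 0.58, and the median was 0.06. The summed level of the adipocyte markers per kb was 371710 normalized counts in wild-type against 399433 in Npffr1-KO. No adipocyte marker reached the ratio of *Lep*. Thermogenic markers were compared too. Of 13 past the minimum, 8 were higher by 1.5-fold and 0 were lower, with a median log2 ratio of 1.45. The 8 were *Cidea*, *Plin5*, *Cox8b*, *Cox7a1*, *Otop1*, *Ucp1*, *Ppara* and *Ppargc1a*, and *Ucp1*, the uncoupling protein of thermogenic adipocytes, had 438 and 1287 normalized counts. The most abundant marker of this list by mean, *Kcnk3*, a potassium channel, had a log2 ratio of 0.11.

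Markers of progenitors had a median log2 ratio of -0.16, with 6 of 8 below 0 and 2 above. Past 1.5-fold was 1 of the 8, *Dlk1*, which encodes the preadipocyte factor PREF-1, with 13526 normalized counts in wild-type against 7412 in Npffr1-KO. *Dcn*, the matrix proteoglycan decorin and the most abundant of this list, had -0.30. Of the 10 macrophage markers 0 were past 1.5-fold, with *Lyz2* and *Csf1r* at 0.37 and -0.07. Lymphocyte markers were higher by 1.5-fold in 3 of 6, the T cell genes *Cd3e*, *Cd3g* and *Lck*, and in 1 of 6 when centred on gene length. *Cd79a*, a B cell gene and the most abundant of this list, had a log2 ratio of 0.33. Skeletal muscle markers were higher by that fold in 5 of 7, *Acta1*, *Tnnc2*, *Ckm*, *Tnnt3* and *Actn3*, or in 3 of 7 when centred on gene length. The highest, *Acta1*, had 171 and 410 normalized counts. A single matching combination of whole reads was found for 2 of the 7, *Mylpf* and *Actn3*, and their libraries did not rank alike. None was found for *Ckm* and *Myh1*. Reads per library were searched only up to a limit set by the mean of the gene. The failed search therefore cannot tell reads that were not whole from a library past this limit. A match, where found, may not give the true reads. Normalized reads of *Mylpf* were 90.8, 59.7 and 32.8 in the wild-type libraries a, b and c, and 0.964, 91.8 and 182 in those of Npffr1-KO. For *Actn3* they were 14.5, 5.87 and 21.8 in wild-type, and 50.1, 11.1 and 18.5 in Npffr1-KO. On these values the genotypes overlapped for both genes. Of the 4 epithelial markers past the minimum, *Cdh1* was 1.65-fold lower and the others, *Krt10*, *Krt18* and *Epcam*, were within 1.5-fold. *Alb*, a marker of liver, had 414 and 424 normalized counts, *Serpina1a* had 38.0 and 41.4, and *Ttr*, the plasma partner of *Rbp4*, was near 0 with 0.345 and 0.316. The part of these cell types in the *Lep* value was not tested.

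**Figure D5:**
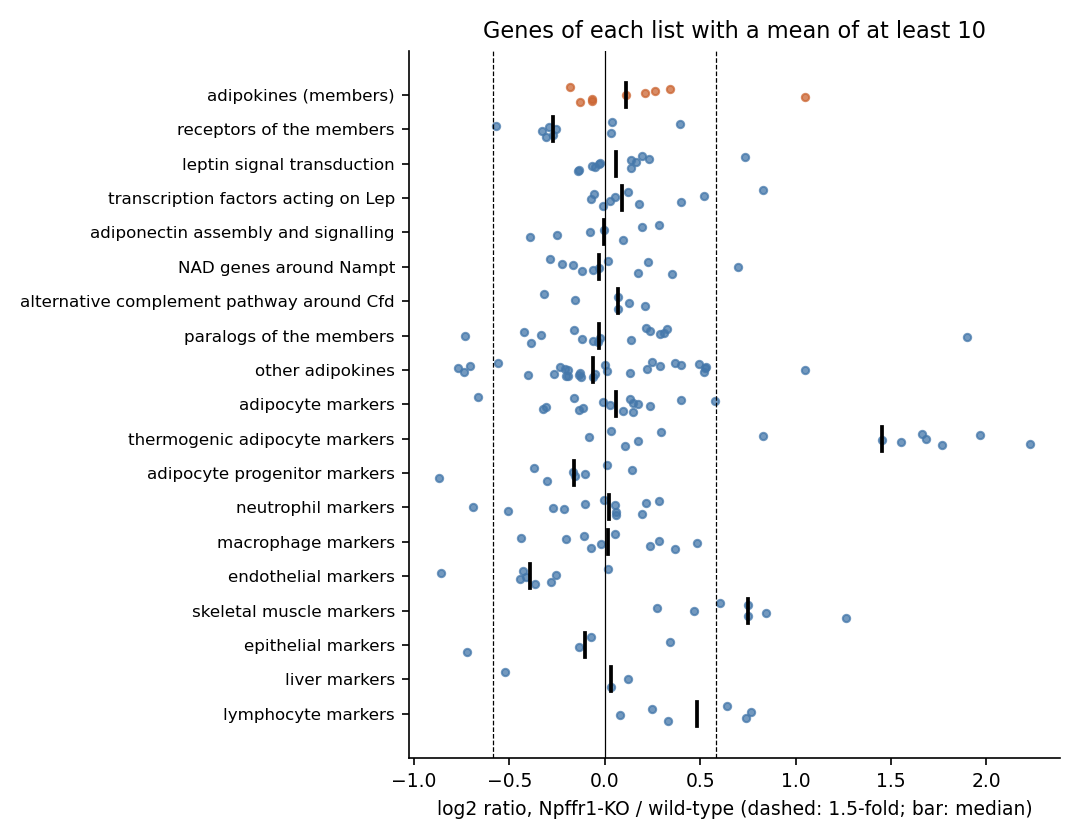
Each point is a gene that averaged 10 normalized counts or more, placed by its log2 ratio of Npffr1-KO to wild-type (x axis) in the row of its list, with the median as a bar, dashed lines at 1.5-fold and the adipokines in orange. *Lep* at 1.05 is the single orange point past a dashed line, and the thermogenic markers have the highest median, 1.45.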

How the data were processed

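Total RNA of iAT was extracted with TRIzol and sequenced. The authors deposited a table with 1 signal per gene and genotype, a read count normalized for library size. The submitters' processing notes name Bowtie2, RSEM and DESeq2, and no genome build or annotation is named in the sources used here. The table also holds the fold changes, p-values and calls of the authors, as does a second, filtered table of theirs, and these were not used.

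The log2 ratio of the 2 deposited values was computed for every gene. A gene counted as past the fold at 1.5-fold, among genes whose values had a mean of at least 10. Levels were divided by the deposited gene length. Members and lists were chosen with earlier results of these data known. For centring on length, the median of 20 length classes was subtracted. Of each list, genes past 1.5-fold and the 2 with the highest mean are named, and the 5 genes nearest to *Lep* in both values. Genes outside this rule were named after their values were seen, and 1 result is not reported here.

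Single-read genes take 6 distinct values, which give the value of 1 read in each library, 0.964 to 1.09 normalized counts, and its genotype from the column that is raised. Listed genes with a mean of up to 80 were searched over all combinations of whole reads up to 2.5 times the mean plus 10. With the value of 1 read in each library, a combination had to match the sum of the 2 deposited values, given 15 significant digits. A single combination in the direction of the deposited values was found for 48 of 50 genes, and none for *Ckm* and *Myh1*. The search and the centring were tested on simulated data, in which all reads were whole. Intervals are 95% exact binomial, cover counting error only and take each value as the mean of 3 libraries. As the deposited values are drawn together between genotypes, these intervals are approximate. Alternatives were other folds, minimums, pseudocounts and scalings. Python 3.11.15, pandas 2.3.3, numpy 2.4.6, scipy 1.17.1 and matplotlib 3.10.9 were used.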

Additional observations from a re-analysis of the deposited data

How the results depend on the processing

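The number of adipokines past the fold in Npffr1-KO was 2 in place of 1 at a lower fold, a log2 ratio of 0.32, where *Nrg4* joined *Lep*, and it was 1 upward and 0 downward under every other alternative tried (a 2-fold threshold, no minimum mean or one of 50, a pseudocount of 1 or 10, centring on the median or on gene length). Of the 15309 genes past the minimum, 12% were higher and 11.6% were lower at the lower fold. At 2-fold, 0.483% were higher and 0.314% were lower. The log2 ratio of *Lep* ran from 1.04 to 1.07 over the alternatives. Centring on gene length turned the median of the 9 adipokines from 0.11 to -0.09, and the ratio of *Rbp4* and the medians of the adipocyte, neutrophil and liver markers and of adiponectin assembly changed sign near 0 as well. So did the median of the further adipokines without a minimum, from -0.06 to 0.01. With each library of *Lcn2* left out in turn, the log2 ratio of its library means, -0.20, ran from -0.41 to -0.04. The deposited values gave -0.18. Leaving out a library was not possible for the other adipokines, whose reads per library were not worked out. No paired analysis was possible because the deposited columns carry 1 value per genotype and no replicate number. DESeq2 or another count test was not run for the same reason. Depth limited *Lcn2*, whose 95% counting interval of the log2 ratio of deposited values ran from -0.46 to 0.10.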
